A study of Homo sapiens with 12 samples.

Results

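The genes described here are 7 members of the aryl hydrocarbon receptor pathway: AHR, AHRR, ARNT, TIPARP, CYP1A1, CYP1A2 and CYP1B1. They were chosen by name, not by any measured value, though earlier results of these data were known. All measured CpGs from 1500 bp before to 1500 bp after each gene were taken. That gave 1606 of 3689712 CpGs with a 5-methylcytosine (5mC) level and 1590 of 3534314 CpGs with a 5-hydroxymethylcytosine (5hmC) level, in 7 of 20033 protein-coding genes. AHRR alone held 952 of the 5mC positions, CYP1B1 held 178, ARNT 135, AHR 132, TIPARP 100, CYP1A1 80 and CYP1A2 29.

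AHR is a transcription factor that waits in the cytoplasm with chaperones until it binds a ligand, such as a dioxin, a polycyclic aromatic hydrocarbon or a tryptophan product. It then pairs with ARNT in the nucleus and binds DNA at response elements with the core GCGTG, which contains a CpG. The CYP1 genes, which encode monooxygenases that oxidise polycyclic aromatic hydrocarbons and aromatic amines, are its classic targets, while AHRR and TIPARP are targets that act back on AHR to limit its activity.

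SV-HUC-1 is a line of human urothelial epithelial cells immortalised with SV40, and all samples came from it. The cells were given 2,6-dichloro-1,4-benzoquinone (DCBQ), a halogenated quinone found in disinfected water, or blank solution as the control, for 3 days. The dose is not given in the labels. For each condition the labels list 3 bisulfite (RRBS) and 3 oxidative bisulfite (oxRRBS) libraries, and the deposited tables give 3 control and 3 DCBQ values per CpG for each mark. Reduced representation sequencing reads mainly CpG-rich fragments, so parts of each gene were not measured. Levels are given as percent of the CpG's copies carrying the mark, differences as DCBQ minus control in percentage points, and positions on hg38. The number of reads behind each level is unknown.

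Over all CpGs of the table, 5mC averaged 54.543% ± 0.154 in controls and 54.127% ± 0.098 with DCBQ, and 5hmC 3.368% ± 0.064 and 3.466% ± 0.142 (SD, n = 3 throughout). For 5mC every DCBQ sample lay below every control in this mean over all CpGs, while for 5hmC the groups overlapped. The same means over the member CpGs were 57.373% and 57.076% for 5mC and 2.477% and 2.441% for 5hmC, and there the groups overlapped for both marks. Start windows of 8 epithelial and urothelial marker genes had control 5mC from 1.16% to 82.68% (median 7.62%), with TP63 (82.68%) and GATA3 (52.23%) at the high end. The 5 measured markers of leukocytes, endothelium and fibroblasts had 54.93% to 85.59%. Expression was not analysed here, so the labelled cell type was checked on methylation alone.

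The DNA just before 4 of the gene starts is shown first, because these are the stretches where both marks were near 0 in every sample or where the assay missed part of the promoter. Each sequence is the 250 bases before the annotated gene start, from RefSeq (GRCh38.p14), 5′ to 3′ on the gene's strand, and capitals mark the CpGs with a 5mC level in the deposited table.
AHR, chr7:17298402-17298651, plus strand: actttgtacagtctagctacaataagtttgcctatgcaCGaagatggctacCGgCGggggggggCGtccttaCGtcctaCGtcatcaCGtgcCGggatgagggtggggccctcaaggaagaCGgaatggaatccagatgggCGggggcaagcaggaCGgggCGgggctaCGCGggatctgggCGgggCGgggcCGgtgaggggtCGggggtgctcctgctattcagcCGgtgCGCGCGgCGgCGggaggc
AHRR, chr5:321464-321713, plus strand: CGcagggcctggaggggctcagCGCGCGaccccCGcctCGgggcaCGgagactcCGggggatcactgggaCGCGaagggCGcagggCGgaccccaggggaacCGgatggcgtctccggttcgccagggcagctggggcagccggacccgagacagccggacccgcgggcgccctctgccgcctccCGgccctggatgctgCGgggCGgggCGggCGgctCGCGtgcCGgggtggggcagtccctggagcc
ARNT, chr1:150876600-150876849, minus strand: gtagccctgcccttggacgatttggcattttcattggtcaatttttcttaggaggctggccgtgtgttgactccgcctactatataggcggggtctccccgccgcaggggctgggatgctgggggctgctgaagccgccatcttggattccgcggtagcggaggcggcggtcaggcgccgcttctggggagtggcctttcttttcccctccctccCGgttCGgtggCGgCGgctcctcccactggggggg
TIPARP, chr3:156674340-156674589, plus strand: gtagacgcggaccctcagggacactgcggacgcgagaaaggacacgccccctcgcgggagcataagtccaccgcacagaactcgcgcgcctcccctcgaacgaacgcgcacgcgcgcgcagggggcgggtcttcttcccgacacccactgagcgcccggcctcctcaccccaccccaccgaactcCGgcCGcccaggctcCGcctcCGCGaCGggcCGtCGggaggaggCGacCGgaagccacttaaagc
All 24 CpGs of the AHR stretch were measured, against 21 of 31 for AHRR, 4 of 18 for ARNT and 10 of 35 for TIPARP. In the same 250 bases of CYP1A1, 0 of 10 CpGs were measured, and in those of CYP1A2, 0 of 1. CYP1B1 had no entry among these sequences.

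The core GCGTG was searched on both strands from 250 bp before to 50 bp after each annotated start in AHR, AHRR, ARNT, TIPARP, CYP1A1 and CYP1A2. It was found 7 times, and the CpG inside it had a level in 4 of the 7. GCGTG occurs in 44.6% of 13819 gene start windows of this length, so its presence does not set these genes apart, and a match is a string of letters and not a shown binding site. The longer form TNGCGTG occurs in 6.64% of those windows and, among the members' gene starts, in AHRR. The 4 measured matches and the unmeasured CYP1A1 match are shown with their neighbouring bases on the gene's strand, the core in capitals.
AHR, CpG at position 38 from the start: ccgagaGCGTGccccgg
AHRR, CpG at position -29: cggctcGCGTGccgggg
AHRR inner start, CpG at position -246 from it: ggcGCGTGacaggc
AHRR inner start, CpG at position -41 from it: gggtggGCGTGtgcgcg
CYP1A1, CpG at position -55: aaggagGCGTGgccaca
The CpG in the AHR match had 5mC of 1.8%, 0% and 0% in controls and 0%, 2.2% and 0% after DCBQ. The AHRR gene start match had 0%, 0% and 0.8% in controls and 1.6%, 0% and 1.1% after DCBQ. Both were thus almost free of 5mC in all 6 samples. The matches before the inner AHRR start, at chr5:322610, carried far more. The outer of these CpGs had 28.6%, 31.3% and 27.1% in controls and 23.7%, 44.9% and 33.3% after DCBQ, and the nearer had 84.7%, 77.7% and 83.5% against 83.6%, 75.3% and 97.3%. Groups overlapped at all 4 CpGs. The matches in CYP1A1 and TIPARP could not be read this way, since the CpGs in them had no level. DNA farther upstream was not searched.

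Each gene was next summarised over a start window, from 1500 bp before to 500 bp after the gene start, over a body from there to the gene end, and over the whole span with its flanks. The question was whether DCBQ moved either mark in these genes. No member region passed the test for either mark (limma on all genes, Benjamini-Hochberg adjusted p below 0.05), and the adjusted p ran from 0.6 to 0.999 for 5mC and from 0.962 to 1 for 5hmC. Across all genes 0 regions passed too: at an unadjusted limma p below 0.05 there were 1003 starts (6.61%), 1453 bodies (8.71%) and 1680 spans (9.12%) for 5mC, and 747 (4.96%), 884 (5.34%) and 946 (5.16%) for 5hmC. The smallest unadjusted limma p of a member region was 0.089, for the CYP1B1 span. The 3 control and 3 DCBQ values did not overlap in 3 of the 40 member regions, all for 5mC. The background for such separation was 11.9% of all 5mC start windows, 16% of bodies and 16.3% of spans, and 9.91%, 9.89% and 9.93% for 5hmC. For 5mC the members had 1 of 6 start windows (CYP1B1), 1 of 7 bodies (TIPARP) and 1 of 7 spans (CYP1B1), and for 5hmC 0 of each. With so few regions these counts are near the background and are no result about the members. Without control 1, control 3, DCBQ 2 or DCBQ 3 the count was 7, 11, 9 and 5, where 2 values in a group overlap less readily than 3 by construction. The background rose too: without control 3, 1038 of 15183 5mC start windows were higher without overlap and 2257 lower over all genes. Of 16683 bodies 764 were higher and 3680 lower. For 5hmC the counts were 1745 and 1365 of 15067 start windows and 1781 and 1467 of 16553 bodies. Spans were not counted this way, and these counts too are no result about the members.

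**Figure D1:**
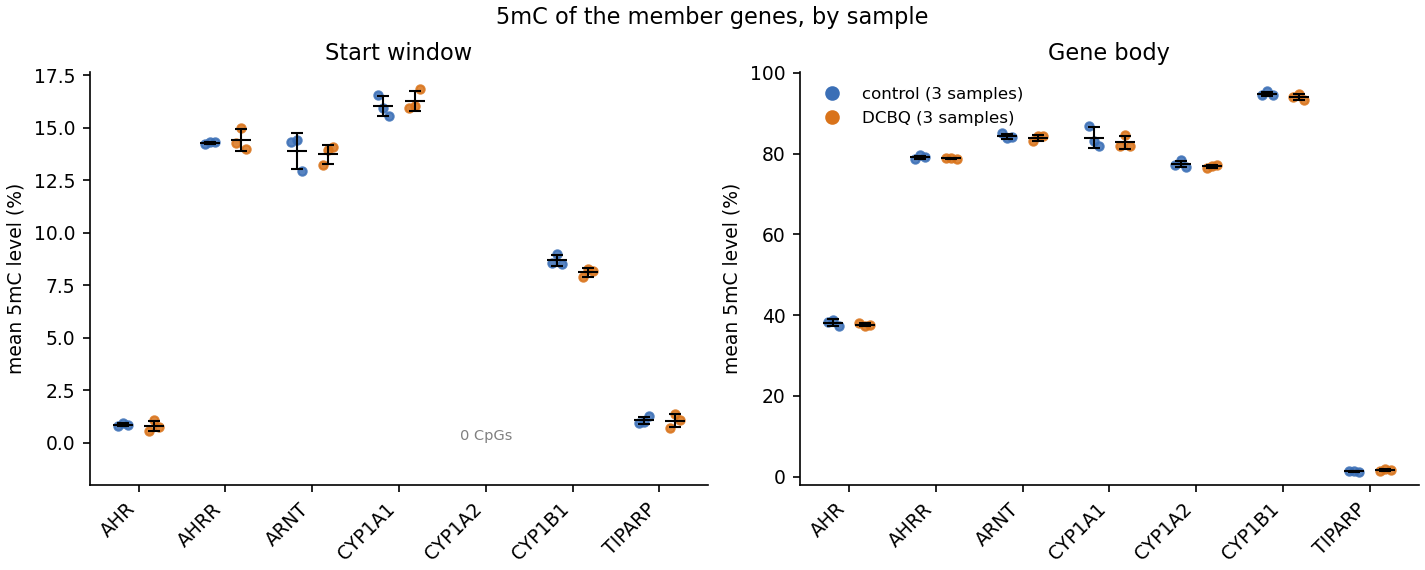
Mean 5mC level (percent) of the start window (left) and the gene body (right) of each gene; points are samples (blue control, orange DCBQ, 3 each) and bars the mean ± SD. AHR and TIPARP starts lie near 1%, the TIPARP body at 1.31% in controls, and the other bodies from 38.17% (AHR) to 94.85% (CYP1B1).

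The receptor gene AHR (chr7:17298652-17346147, plus strand) had a start window nearly free of 5mC. Its 77 CpGs read 0.8%, 0.94% and 0.85% in controls and 0.58%, 1.07% and 0.77% after DCBQ. The groups overlapped, and the difference was -0.06 points (limma SE 0.18, 95% interval -0.49 to 0.37, adjusted p 0.972). Only 3% of 15186 genes had a lower start level in controls, against a median of 5.08%. The unmethylated stretch ran on past the window: 105 CpGs from position -212 to 792, counted in bp from the start, averaged 0.87% in controls and 0.83% after DCBQ. A lncRNA gene, LOC101927609, overlaps this start, and the levels belong to both.

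Inside AHR the picture changed over distance. The remaining 27 measured CpGs lay in a cluster 38915 to 39541 bp after the start and averaged 77.11%, 77.8% and 75.64% in controls against 76.71%, 75.44% and 75.23% after DCBQ, with overlap. The body mean of 38.17% ± 0.757 in controls and 37.67% ± 0.403 after DCBQ (SD, n = 3) therefore joins 2 unlike stretches. Its difference of -0.5 points (limma SE 0.5, adjusted p 0.782) was within the spread of the samples. 5hmC of the AHR start was 0.62% ± 0.338 in controls and 0.62% ± 0.098 after DCBQ (SD, n = 3), and that of the body 1.79% ± 0.524 and 1.67% ± 0.918. Of the 132 CpGs of AHR, 30 read 0 for 5mC in all 6 samples.

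ARNT (chr1:150809713-150876599, minus strand) encodes the partner that AHR needs to bind DNA. Its start window of 32 CpGs read 14.32%, 14.44% and 12.92% in controls and 13.21%, 13.92% and 14.07% after DCBQ. The groups overlapped, with a difference of -0.16 points (limma SE 0.55, 95% interval -1.49 to 1.17, adjusted p 0.977). Around the start the levels were of different kinds: 28 CpGs from position -34 to 718 averaged 1.24% in controls and 1.5% after DCBQ, whereas 6 CpGs farther upstream averaged 70.28% and 66.88%. These stretches, like the others given by their own bounds, were delimited after the values were seen and are descriptions with no test.

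Close to the ARNT start the direction depended on the window. From 250 bp before to 50 bp after it, 11 CpGs had a mean of 1.03%, 0.43% and 0.79% in controls and 1.65%, 1.68% and 1.49% after DCBQ, which do not overlap, a difference of 0.86 points against -0.16 in the wider window. Over all genes, 442 of 10656 windows of this kind were higher without overlap and 723 lower. The ARNT rise came from a single CpG at chr1:150876633, in the sequence shown above. Its difference exceeded the sum over all 11 CpGs, so the other CpGs were lower on average after DCBQ. This CpG read 0% in all 3 controls and 18.2%, 13.3% and 7.1% after DCBQ. Its adjusted p was 0.883 (limma, SE 2.68 for a difference of 12.87 points). Its 5hmC was 0%, 5.56% and 11.11% in controls and 0% in all 3 DCBQ samples, with overlap. The next CpG in the direction of the start, at position -29, had means of 0.8% and 0%. The ARNT body was highly methylated, at 84.33% ± 0.629 in controls and 83.89% ± 0.734 after DCBQ (SD, n = 3), and 84.5% of genes had a lower body level in controls.

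AHRR (chr5:321714-438285, plus strand) encodes the repressor that competes with AHR for ARNT. It is the longest of the genes and had the most measured CpGs. The lncRNA gene PDCD6-AHRR runs across it, so its levels are not those of AHRR alone. The 121 CpGs of the start window read 14.22%, 14.31% and 14.3% in controls and 14.29%, 14.98% and 13.98% after DCBQ. The groups overlapped and the difference was 0.14 points (limma SE 0.42, 95% interval -0.86 to 1.14, adjusted p 0.972). The 830 CpGs of the body read 78.76%, 79.56% and 79.06% in controls and 78.85%, 78.94% and 78.7% after DCBQ, which also overlap.

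Around the AHRR start a methylation valley with sloping sides was seen in all 6 samples. A run of 57 CpGs from position -648 to 161 stayed below 20% in every sample and averaged 1.96% in controls and 2.04% after DCBQ. Downstream, 3 consecutive CpGs at or above 50% were reached at 537 bp in each of the 6 samples. The inner start that RefSeq lists at chr5:322610 lies beyond that boundary: its 26 CpGs averaged 85.93% in controls and 85.98% after DCBQ. Thus the gene start was unmethylated and the inner start methylated under both conditions.

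**Figure D2:**
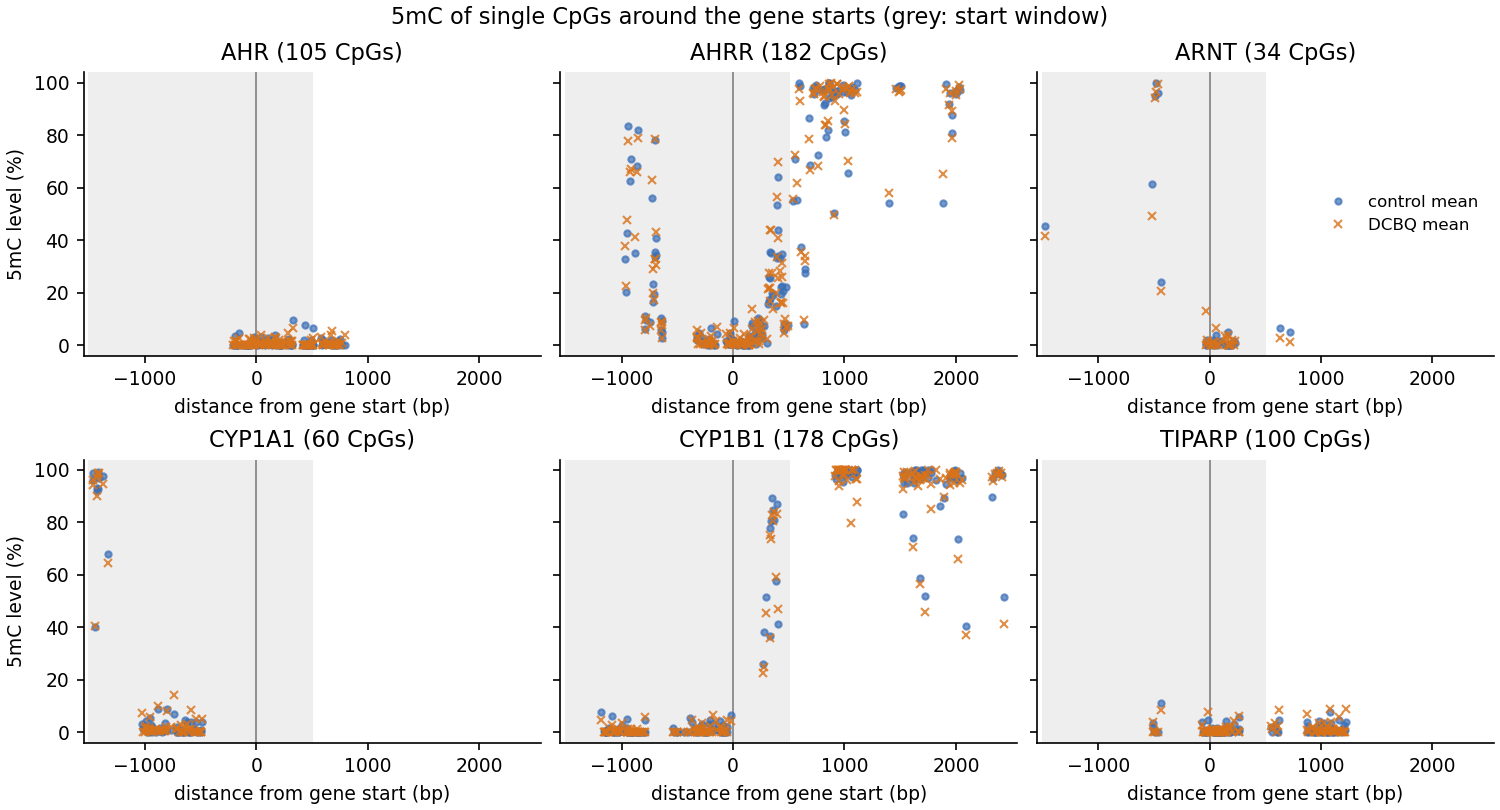
5mC level (percent) of each CpG measured from 1500 bp before to 2500 bp after the gene start, against distance from the start (bp), for 6 genes; blue dots are control means, orange crosses DCBQ means, and grey marks the start window. Within this range the AHR and TIPARP CpGs are low, CpGs past the start of AHRR and CYP1B1 reach high levels, and CYP1A1 shows 0 CpGs from the start to 500 bp inside; CYP1A2 is not drawn because its start window held 0 CpGs.

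A further low stretch lay far inside AHRR. At chr5:373668-374229, 51954 to 52515 bp after the start, 73 CpGs had a mean of 11.62%, 12.7% and 13.17% in controls and 11.93%, 11.8% and 11.34% after DCBQ, with overlap. Of these CpGs 61 were below 20% in controls. The 9 CpGs measured in the 1000 bp before it averaged 83.24% ± 1.98 in controls and 79.65% ± 3.09 after DCBQ, and the 18 in the 1000 bp after it 79.07% ± 1.09 and 77.45% ± 1.86 (SD, n = 3). Groups overlapped in both flanks. Lower after DCBQ were 8 of the 9 CpGs and 10 of the 18, against 49.2% of all CpGs. 5hmC in the low stretch was 4.06%, 3.88% and 2.58% in controls and 2.36%, 1.85% and 1.72% after DCBQ, so all DCBQ samples were below all controls, by 1.53 points of the mean. For comparison, groups did not overlap in 9.94% of all 5hmC tiles of 1 kb and in 11.5% of those for 5mC.

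The flank before this stretch is background knowledge for AHRR, since CpGs there are known for lower methylation in the blood of smokers. The best known of them, at chr5:373263, was looked up for that reason and not by its values here. It read 62.5%, 68.4% and 60.4% in controls and 51.4%, 61.4% and 58.9% after DCBQ. The difference was -6.53 points (limma SE 5.95, adjusted p 0.928) and the groups overlapped, with a two-sided exact permutation p of 0.2. A neighbour inside the low stretch at chr5:373793 had 41.3%, 30.7% and 32.7% in controls and 21.4%, 23.8% and 23% after DCBQ, which do not overlap (difference -12.17 points, limma SE 4.3, adjusted p 0.928). It was chosen after its values were seen.

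**Figure D3:**
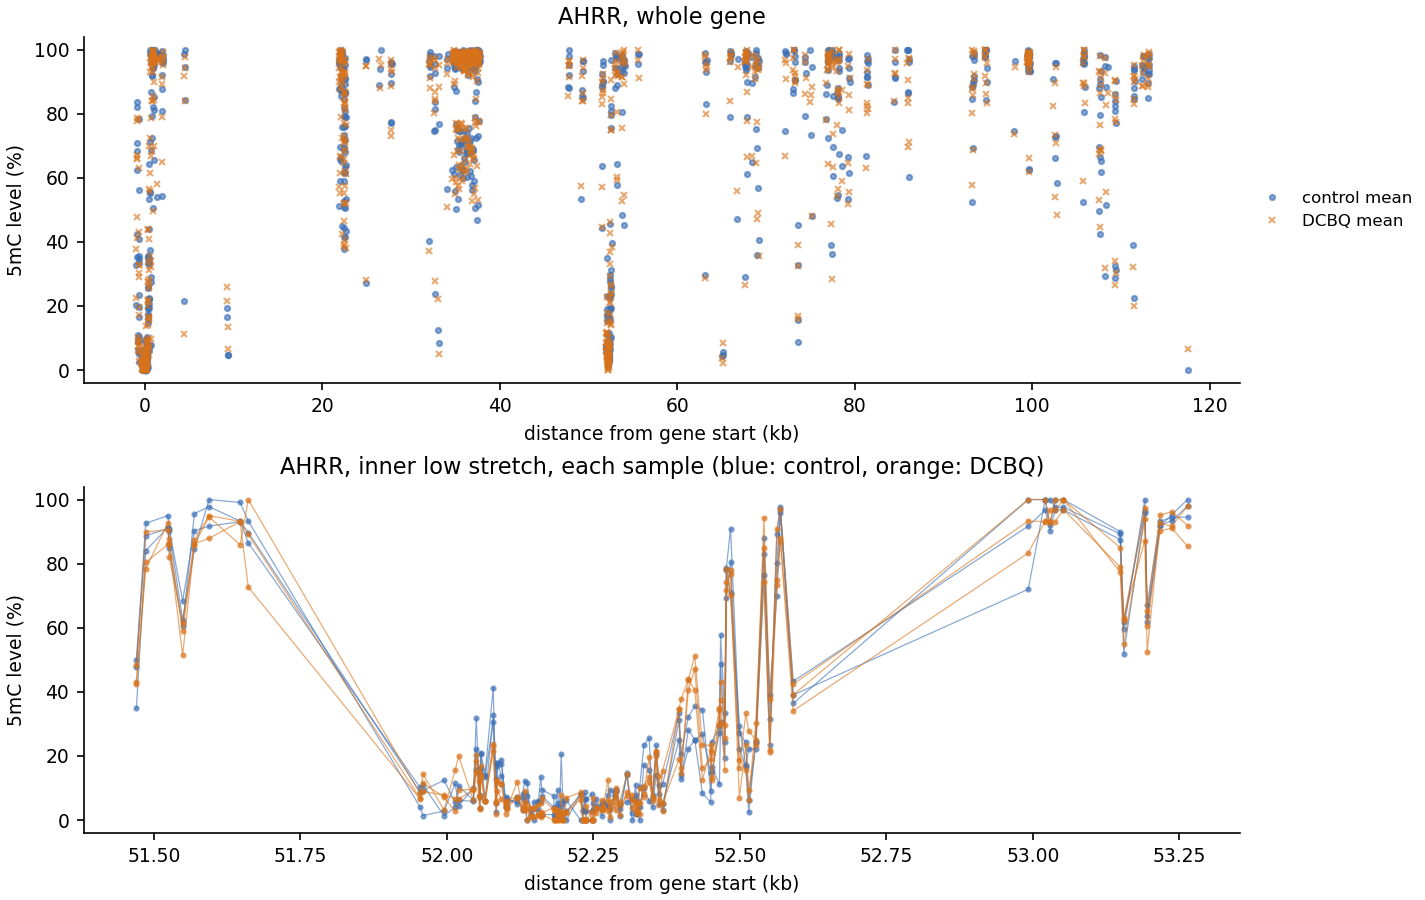
5mC level (percent) along AHRR against distance from the gene start (kb): above, control and DCBQ means of every CpG, and below, each sample (3 blue control and 3 orange DCBQ lines) across the inner low stretch at about 52 kb. Lines of both colours fall and rise at the same CpGs.

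TIPARP (chr3:156674590-156706770, plus strand) encodes an ADP-ribosyltransferase that modifies AHR and lowers its activity. It was the least methylated of the genes: all 100 measured CpGs had a control mean below 20%, the highest at 11.2%. They lay between positions -510 and 1227, so most of the gene length was not measured, and the antisense gene TIPARP-AS1 shares the start. The start window read 0.95%, 0.97% and 1.26% in controls and 0.72%, 1.35% and 1.1% after DCBQ, with overlap. The 48 body CpGs read 1.36%, 1.47% and 1.09% in controls and 1.48%, 1.81% and 1.64% after DCBQ. All 3 DCBQ samples were above all 3 controls, by 0.34 points (limma SE 0.23, adjusted p 0.705; two-sided exact permutation p 0.1, the smallest that 3 against 3 allows). 5hmC of the same body was 0.73% ± 0.416 in controls and 0.52% ± 0.017 after DCBQ (SD, n = 3).

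CYP1A1 (chr15:74719542-74725528, minus strand) encodes the most strongly AHR-inducible monooxygenase. Its 60 start window CpGs lay from position -1466 to -493, and the proximal promoter was not measured. They read 16.54%, 15.96% and 15.58% in controls and 15.96%, 16.04% and 16.83% after DCBQ, with overlap (difference 0.25 points, limma SE 0.48, adjusted p 0.958). The mean again joins unlike stretches. From position -1031 to -493, upstream DNA in which response elements of this gene are known to lie, 50 CpGs had 2.22%, 1.54% and 1.44% in controls and 1.69%, 1.78% and 2.68% after DCBQ. The 10 CpGs from position -1466 to -1334 averaged 87.5% ± 1.07 and 87.39% ± 0.14 (SD, n = 3). The stretch from position -1031 to -493 was therefore nearly unmethylated under both conditions, with overlapping groups. No response element was located in it here.

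The CYP1A1 body was represented by 10 CpGs, with 86.87%, 83.02% and 81.82% in controls and 81.81%, 84.63% and 81.94% after DCBQ, which overlap. Its control 5hmC of 5.33% ± 0.622 (SD, n = 3) exceeded that of 90.6% of 16555 gene bodies, and after DCBQ it was 4.9% ± 0.841. Past the gene end, at chr15:74718550-74718754, a cluster of 10 CpGs read 71.53%, 76.65% and 76.72% for 5mC in controls and 69.8%, 70.17% and 70.32% after DCBQ. For 5hmC, 9 of these CpGs read 2.87%, 0.72% and 1.09% in controls and 7.09%, 5.57% and 6.54% after DCBQ. In this cluster every DCBQ sample was below every control for 5mC (by 4.87 points of the mean) and above every control for 5hmC (by 4.84 points). It was picked out after its values were seen. As a tile among 201896 in the 5hmC table its adjusted p was 0.974 (limma, SE 1.27, unadjusted p 0.00367), so it did not pass.

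CYP1A2 (chr15:74748845-74756607, plus strand), the neighbour of CYP1A1 that is best known as a liver enzyme, had 0 measured CpGs in its start window. The 29 body CpGs read 77.27%, 78.34% and 76.77% in controls and 76.46%, 76.99% and 77.17% after DCBQ. The groups overlapped, with a difference of -0.59 points (limma SE 0.58, 95% interval -2 to 0.82, adjusted p 0.777). Body 5hmC was 4.52%, 2.27% and 2.79% in controls and 2.1%, 3.02% and 3.15% after DCBQ, also with overlap.

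CYP1B1 (chr2:38067509-38076151) encodes the family member best known outside the liver. The references used here gave no start for it, so the gene end with more measured CpGs, at 38076151, was taken as the start. The 97 CpGs of that window read 8.55%, 8.99% and 8.52% in controls and 7.87%, 8.29% and 8.2% after DCBQ. All DCBQ samples lay below all controls, by -0.57 points (limma SE 0.3, 95% interval -1.3 to 0.16, adjusted p 0.82; two-sided exact permutation p 0.1). Over the whole span the values were 47.7%, 48.33% and 47.67% against 47.06%, 47.58% and 46.95%, again without overlap (difference -0.7 points, limma SE 0.35, adjusted p 0.6).

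Most of the lower CYP1B1 start level lay at the edge of its unmethylated stretch. Before the start, 85 CpGs averaged 1.07% ± 0.2 in controls and 0.85% ± 0.15 after DCBQ (SD, n = 3), with overlap. From 272 to 399 bp after it, 12 CpGs read 63.05%, 63.85% and 60.99% in controls and 58.78%, 60.39% and 59.56% after DCBQ, without overlap, and 9 of the 12 were lower after DCBQ. At chr2:38075871 within that edge the level was 40.4%, 34.2% and 39.8% in controls and 29.6%, 19.6% and 25.5% after DCBQ (adjusted p 0.928, limma). By 1 coarse measure the edge stayed in place: 3 consecutive CpGs at or above 50% were reached at 343 bp in each of the 6 samples. No CpG was measured between positions -23 and 272, so a smaller shift could not be seen at this edge. Beyond it the body was almost fully methylated, at 94.85% ± 0.498 in controls and 93.99% ± 0.641 after DCBQ, and 99.5% of genes had a lower body level in controls.

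At single CpGs, 0 of the 1497 tested member CpGs passed for 5mC and 0 of 1429 for 5hmC (limma over all CpGs, adjusted p below 0.05 and at least 10 points). The background was 0% of 3419211 CpGs for 5mC and 3.17e-05% of 3153705 for 5hmC, which is 1 CpG outside these genes. Groups did not overlap at 118 member CpGs for 5mC, or 7.88% against a background of 8.02%. Of these 51 were higher and 67 lower after DCBQ, where the background was 3.36% and 4.66% of all tested CpGs. For 5hmC the count was 85, or 5.95% against 6.04%. At an unadjusted limma p below 0.05 there were 43 (2.87% against 4.69%) and 8 (0.56% against 1.82%). Neither mark thus showed more such CpGs in these genes than in the table as a whole.

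**Figure D4:**
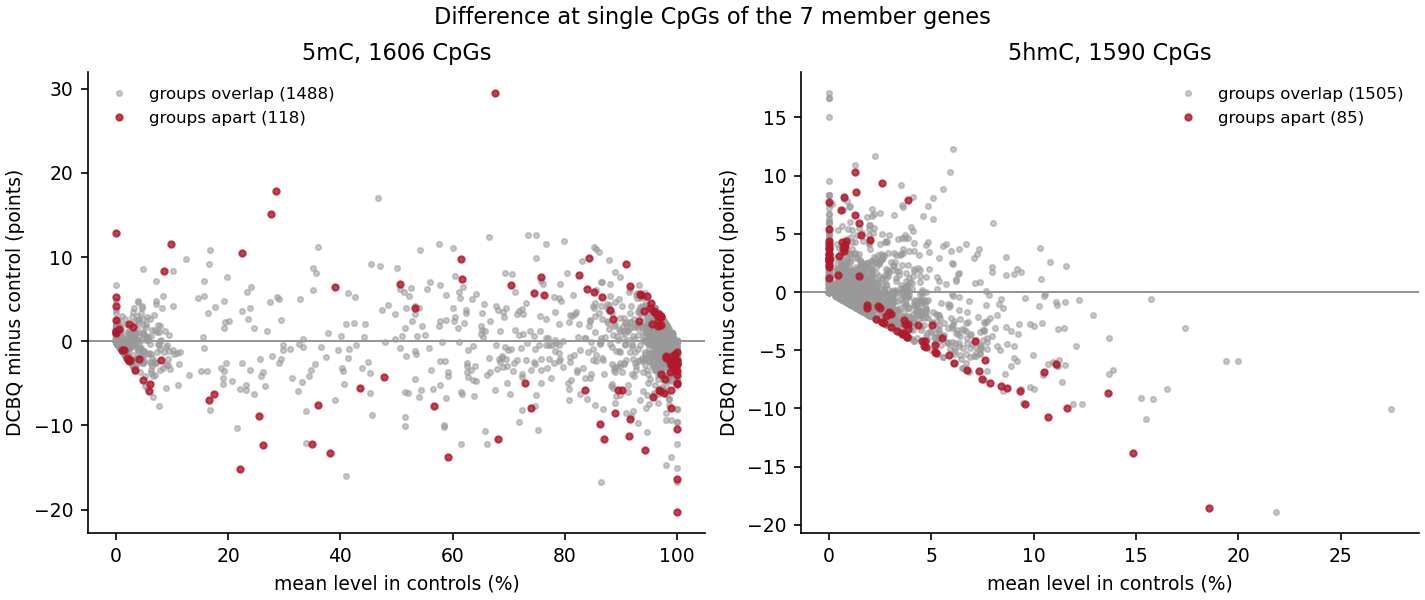
Difference of group means (DCBQ minus control, percentage points) against the control level (percent) for each member CpG, 5mC on the left and 5hmC on the right; red marks CpGs whose 3 control and 3 DCBQ values do not overlap (118 and 85). Points lie on both sides of 0 for both marks.

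The largest separated difference was at chr5:399990 in the AHRR body. Its 5mC was 55.6%, 68.8% and 78.1% in controls and 90.9%, 100% and 100% after DCBQ (adjusted p 0.889, limma), and its 5hmC 27.78%, 12.5% and 15.38% against 0% in all 3 DCBQ samples (adjusted p 0.788, limma). At chr2:38075091 in the CYP1B1 body the 5mC was 100% in all 3 controls and 95.5%, 73.7% and 70% after DCBQ (adjusted p 0.928, limma). At chr15:74722776 in the CYP1A1 body it was 65.5%, 58.3% and 53.5% in controls and 51.4%, 49.1% and 35.4% after DCBQ (adjusted p 0.928, limma). In CYP1A2 the rule named chr15:74754991 (mean 99.97% in controls, 95.03% after DCBQ), and in AHR chr7:17337721 (96.7% and 90.93%). Levels of exactly 0% and 100% are frequent among these CpGs, and the reads behind them are unknown.

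5hmC was low in all 7 genes, with start window means from 0.54% (TIPARP) to 2.67% (AHRR) and body means from 0.73% (TIPARP) to 5.33% (CYP1A1) in controls. It was highest where 5mC was intermediate. With CpGs classed by their mean 5mC over all 6 samples, 280 member CpGs of 20% to 80% had 5hmC of 5.05% ± 1.041 in controls and 4.58% ± 0.404 after DCBQ (SD, n = 3). The 778 CpGs of 80% or more had 2.4% ± 0.206 and 2.6% ± 0.215. Of the CpGs below 20%, 532 had 1.23%, 1.25% and 1.23% in controls and 1.11%, 1.1% and 1.05% after DCBQ, so this class did not overlap between groups while the others did. Gene by gene it overlapped in all 7. The lower mean came mainly from AHRR (158 CpGs, 2.44% in controls and 1.92% after DCBQ). Smaller falls were seen in AHR (0.72% to 0.62%), CYP1A1 (0.95% to 0.88%) and CYP1A2 (2 CpGs, 1.57% to 1.45%). CYP1B1 went from 0.56% to 0.69%, ARNT from 1.19% to 1.32%, and TIPARP from 0.63% to 0.64%. Most CpGs of the inner low stretch of AHRR described above belong to this class, so the 2 observations are not separate. Over all CpGs below 20% the means were 1.55% under both conditions, and the 20% to 80% class was again highest, at 6.43% in controls. Among all CpGs the class without overlap was instead that of 80% or more. It had 2.83%, 2.91% and 2.85% in controls and 3.03%, 2.96% and 3.2% after DCBQ.

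**Figure D5:**
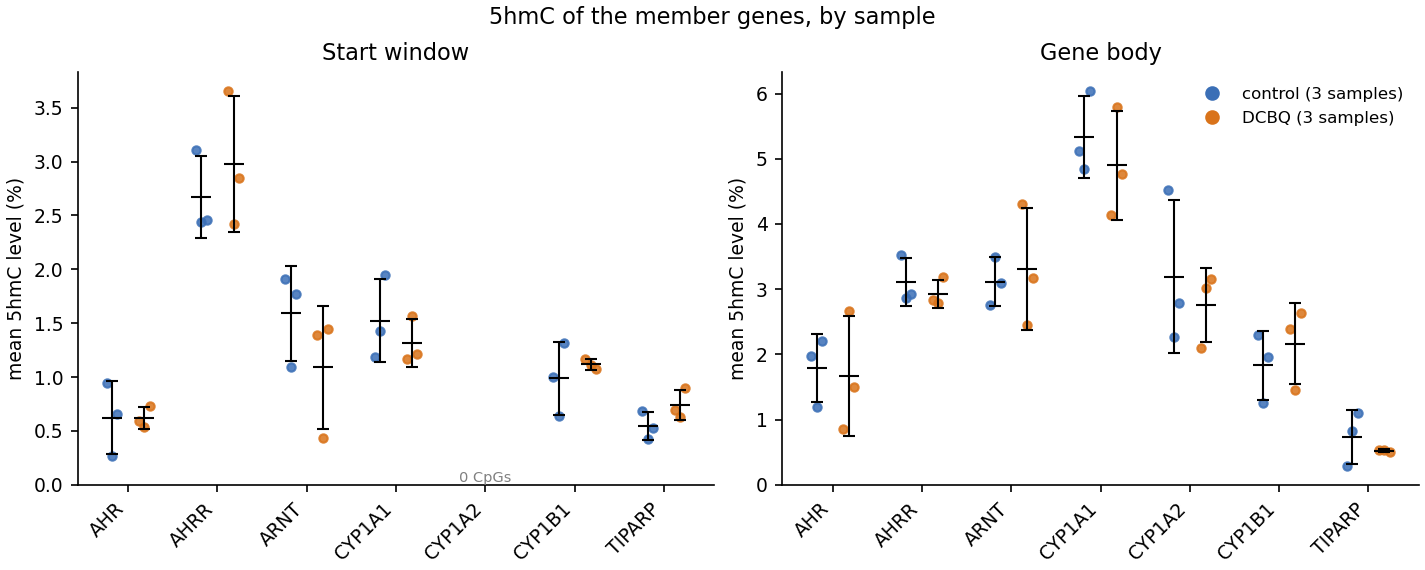
Mean 5hmC level (percent) of the start window (left) and the gene body (right) of each gene; points are samples (blue control, orange DCBQ, 3 each) and bars the mean ± SD. Control and DCBQ points overlap in every panel and gene with a value.

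Another 46 genes of the pathway were listed by role and not by value, though with earlier results of these data known. Among them 0 passed the limma test in any region for either mark. The 5mC start window was lower after DCBQ in 15 and higher in 16 of 31 measured (median 0.02 points, against -0.1 over all genes, of which 59.7% were lower). The body was lower in 31 and higher in 10 of 41 (median -0.36 points, against -0.38 over all genes, of which 69.7% were lower). For 5hmC, starts were lower in 19 and higher in 12 of 31 (45.8% lower over all genes), and bodies lower in 9 and higher in 31 of 40 (43.7% lower over all genes). By group, 5mC bodies were lower in all 9 measured coactivators and corepressors and in 7 of 8 related bHLH-PAS genes. They were lower in 4 of 6 chaperones, 4 of 5 ligand supply genes, 3 of 3 electron supply and catechol genes, and 4 of 10 other AHR targets. The groups are small and the differences between them were not tested.

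Groups did not overlap in 5 of 31 start windows and 8 of 41 bodies for 5mC (11.9% and 16% over all genes), and in 1 of 31 and 2 of 40 for 5hmC (9.91% and 9.89%). These shares lie slightly above the background for 5mC and below it for 5hmC, which was not tested, and the genes that follow are examples chosen by the size of their p. ARNT2, the ARNT paralogue, had start window 5mC of 13.32%, 13.65% and 13.4% in controls and 14.31%, 15.43% and 14.98% after DCBQ (adjusted p 0.669, limma). NRIP1, a corepressor, had 2.68%, 1.6% and 1.72% in controls and 0.86%, 0.44% and 0.42% after DCBQ at its start (adjusted p 0.563, limma). Its start 5hmC was higher in every DCBQ sample, at 1.91%, 3.5% and 2.09% against 0%, 0.83% and 1.39%. SLC7A5, an amino acid transporter, had start 5mC of 4.25% and 3.59%, and GSTA1, a glutathione transferase, body 5mC of 59.82% and 52.26%, in controls and after DCBQ. IDO1, which makes kynurenine pathway ligands from tryptophan, had body 5mC of 79.29% and 84.99% with overlap.

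Genes with the most similar levels were found by the root mean square difference over 24 values (both marks, start and body, 6 samples) among 13520 genes. For AHR these were CHSY1 (0.45 points) and ZNF398 (0.49 points), and for TIPARP they were NAA30 (0.27 points) and CFL1 (0.28 points). AHRR was nearest to PALM (0.77 points) and ATP9A (0.82 points), and ARNT to ZSCAN2 (0.65 points) and LRCH4 (0.72 points). CYP1B1 was nearest to ZNF865 (0.89 points), and CYP1A1, whose nearest gene was LOC124903566 at 1.37 points, had the least close match.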

How the data were processed

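RRBS and oxRRBS libraries of SV-HUC-1 cells were prepared with the Ovation RRBS Methyl-Seq and TrueMethyl oxBS kits, per the labels' protocols. The submitters' processing notes list cutadapt, Trim Galore, BSMAP 2.90 and hg38. The authors deposited a fraction for each CpG, between 0 and 1, as a table of 5mC and a table of 5hmC, with 6 sample columns each per the file headers. Per the file names, strands were merged with a minimum of 5 reads. The sources used here do not give how RRBS and oxRRBS reads were combined, so both tables may draw on the same libraries. Read depth is unknown, and precision rests on 3 samples per group.

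Levels were averaged over CpGs with Python 3.11.15, numpy 2.4.6 and pandas 2.3.3, and drawn with matplotlib 3.10.9. Gene bounds came from RefSeq (GRCh38.p14), and starts and strands from its promoter table for 15842 genes. For 4191 genes, CYP1B1 included, the gene end with more measured CpGs stood in for the start. Exons, introns and untranslated regions were not analysed here. Regions and tiles of 1 kb holding 5 or more CpGs, and CpGs with a varying level, were tested over the whole table with limma 3.58.1 in R 4.3.3 (lmFit, eBayes with trend) on untransformed levels, with Benjamini-Hochberg adjustment and a threshold of 0.05. The code was checked on simulated data. Member regions also had a two-sided exact permutation test, with 20 relabellings and a smallest p of 0.1. No label says whether the samples of a group were grown apart, so the p-values reflect only the spread of these samples, and that spread may be technical.

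Members, pathway list, epithelial, leukocyte, endothelial and fibroblast markers, tests and alternatives were chosen with earlier results of these data known. Named were all members; per member and mark, up to 2 CpGs with the largest difference among those whose groups do not overlap; per mark and region of the pathway list, the up to 2 higher and 2 lower with the smallest limma p; the nearest genes by level; and CpGs within GCGTG. The text gives a selection of these.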

Additional observations from a re-analysis of the deposited data

How the results depend on the processing

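In all 6 leave-outs of a sample, with a replicate block, on a logit scale, without the eBayes trend and with CpGs listed in both tables, limma called 0 start windows, bodies and tiles for both marks and 0 single CpGs for 5mC. The 1 single CpG called for 5hmC became 0 with the replicate block, 0 on the logit scale, 0 without the trend and 0 in each of the 6 leave-outs; the cause was not tested. Member regions whose groups do not overlap numbered 3 of 40, and 4 to 11 over the leave-outs, where fewer samples overlap less readily by construction. The background over all genes, given above without control 3, rose in the same way. With the replicate block the count of regions whose 3 same-number differences share a sign was 8, an easier criterion. Its share over all genes was not counted, so it is no result about the members. Each span contains the start window and body of its gene, so the 40 regions are not separate. Same-number samples did not visibly deviate together (correlations -0.0462 to 0.0172 over gene bodies, against -0.0258 to 0.0341 for different numbers). With 3 samples per group, this cannot tell whether samples of the same number were handled together. Of 438 alternatives for single member regions, 420 moved the difference by less than 1 SD between samples and 18 by more. Most of the latter used the median CpG in place of the mean: 0 points for the CYP1B1 start window and -2.15 for its span, and 1.77 for the AHR body. In the window from 250 bp before to 50 bp after the start, ARNT 5hmC differed by 0.46 points. Depth per CpG is unknown, so levels of 0% and 100% could not be weighed by reads.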

Other observations

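Differences in the 2 marks ran opposite at the same CpG more often than alike: of the 1590 member CpGs in the 5hmC table, 973 had opposite and 395 had like signs of DCBQ minus control. Across these CpGs the differences had a Pearson r of -0.58, from -0.39 in TIPARP and -0.41 in AHR to -0.73 in CYP1A2 and -0.78 in CYP1B1. In TIPARP the signs were nearly balanced, with 30 opposite and 28 alike. Over all 3533825 CpGs in both tables r was -0.59, with 2148414 opposite and 875499 alike, so the members were close to the whole. CpGs are not independent replicates, and the 2 tables may share oxidative libraries, which was not tested.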
